A study of Mus musculus with 4 samples.

Results

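The chemokine ligands Xcl1, Ccl1, Ccl3, Ccl4, Ccl5, Ccl20 and Cxcl13 were followed across regulatory T cells (Treg cells) of immunized mice. They were taken as a fixed set of 7 genes from the 22180 genes that the array platform's annotation names by a probe with 1 gene symbol. Each of the 7 was represented by 1 such probe, and no probe with several symbols carried any of their names. The cells were CD4+ and carried YFP from a reporter that marks FoxP3 expression. Follicular regulatory T cells (TFR cells) were sorted as PD1+ and CXCR5+, and the other Treg cells (non-TFR cells) as CXCR5-. Control mice (WT) had the genotype FoxP3YFP-Cre, and knockout mice (KO) the genotype Prdm1fl/flFoxP3YFP-Cre, in which Cre made under Foxp3 acts on floxed Prdm1 in Foxp3-expressing cells. All mice, controls included, therefore carried the FoxP3YFP-Cre allele, and all had received NP-OVA in CFA 7 days before the sort. Total RNA of each of the 4 groups was hybridized to 1 Affymetrix Mouse Gene 2.0 ST array, and neither the mice's age nor how many were pooled for an array is stated here. With 1 array per group no difference below has a replicate check, and no test or p-value is given.

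Chemokines are small secreted proteins that attract cells carrying the matching G protein-coupled receptors. The pattern of conserved cysteines near the amino terminus divides them into the XC, CC and CXC families. Activated T cells are a known source of several of them: XCL1 draws cross-presenting dendritic cells through XCR1, CCL3, CCL4 and CCL5 draw effector T cells and myeloid cells, and CCL20 is the ligand of CCR6. CXCL13, made above all by follicular dendritic cells and other stromal cells of the B cell follicle, guides cells with CXCR5 into it.

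Levels are log2 intensities after quantile normalization, which gives the 4 arrays the same distribution of values. A level above the median of all genes, 5.91, counted as above the expression limit. The deposited values came without detection calls, so a further limit was read from 1105 olfactory receptor genes, which T cells are not known to use: their 95th percentile lay between 5.54 and 5.66 on the 4 arrays. A level below 5.91 is called near background here, and differences between such levels can be compressed. The deposited values of the arrays fell into 2 pairs. Between the WT and KO TFR arrays 651 of 41345 probes had exactly the same value, and between the WT and KO non-TFR arrays 865 had, whereas no probe had the same value on a TFR and a non-TFR array. Most of the genes concerned were dim, with 307 of 379 and 422 of 500 at or below the expression limit. The medians of the deposited arrays lay within 0.105 of each other, and without quantile normalization the median gene's TFR minus non-TFR difference was 0.11 in WT mice and 0.12 in KO mice. Whether the authors normalized the populations apart is not stated here, so the comparisons between populations may cross values prepared separately. The targeted gene, Prdm1, had levels of 8.21 in WT TFR, 7.32 in KO TFR, 7.80 in WT non-TFR and 7.59 in KO non-TFR cells. These were lower in the KO array of each population, and the part of the transcript that the probe covers is not given here. All 7 measured general T cell markers and all 11 Treg markers were above the limit on all 4 arrays, Foxp3 among them.

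Xcl1 and Ccl5 were above the expression limit on all 4 arrays, and Ccl4 on 3 of them. Ccl1, Ccl3, Ccl20 and Cxcl13 were near background on all 4. Of these, Ccl3 and Ccl20 also lay below the olfactory receptor limit on every array. The description of these ligands in Treg cells therefore rests on Xcl1 and Ccl5.

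**Figure D1:**
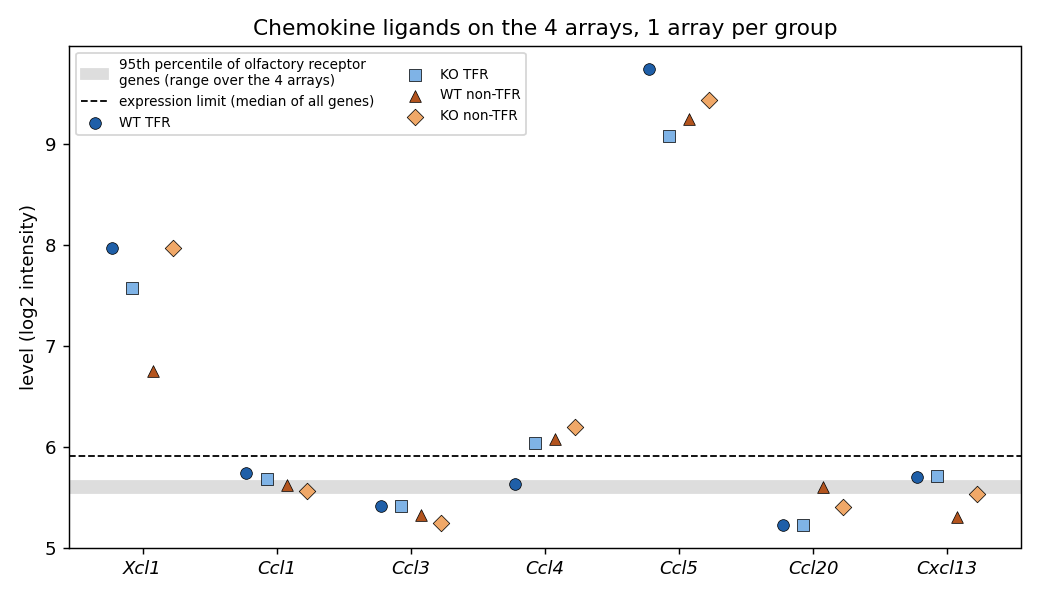
Level (log2 intensity, vertical axis) of each chemokine ligand on the 4 arrays, with 1 point per array, the expression limit of 5.91 as a dashed line and the range of the olfactory receptor limit (5.54 to 5.66) as a grey band. Xcl1 is lowest in WT non-TFR cells at 6.76, Ccl5 is highest in WT TFR cells at 9.75, and the points of Ccl1, Ccl3, Ccl20 and Cxcl13 all lie below the dashed line; levels of different genes come from different probes and are not comparable.

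Xcl1 encodes lymphotactin, the XC chemokine that activated T cells and natural killer cells make. It had a level of 7.97 in WT TFR, 7.58 in KO TFR, 6.76 in WT non-TFR and 7.98 in KO non-TFR cells. WT non-TFR cells thus stood apart from the other 3 arrays, 0.82 below the next lowest. Xcl1 was 1.21 higher on the log2 scale (2.32-fold) in the WT TFR than the WT non-TFR array, whereas in KO mice the difference was -0.40. Between genotypes it was 1.22 higher (2.33-fold) in KO than in WT non-TFR cells and differed by -0.39 between KO and WT TFR cells. The difference in non-TFR cells was high among genes, with 0.198% of all genes higher, and that between the WT populations had 1.68% of genes above it. Both differences of over 2-fold involve the WT non-TFR array, so they are not separate observations. 4 cell cycle genes, named with their values already known, were also lowest on that array: the proliferation marker Mki67 had levels of 11.31 in WT TFR, 11.37 in KO TFR, 7.90 in WT non-TFR and 9.24 in KO non-TFR cells. Cdk1, Top2a and Ccna2 were, like Mki67, higher in KO than in WT non-TFR cells, by 1.33, 1.12 and 1.65, and the part of cell division in the Xcl1 differences was not tested. On the deposited values the difference was 1.33 between the WT populations and 1.18 between genotypes in non-TFR cells, and that between the KO populations was -0.24.

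The bases just before the start of Xcl1 are shown because it is the member with the largest range over the arrays. RefSeq's promoter table places them at chr1:164935523-164935772 of GRCm38.p6, on the minus strand, and they end at the base before the start site; capitals mark the match to an ETS motif.
Xcl1: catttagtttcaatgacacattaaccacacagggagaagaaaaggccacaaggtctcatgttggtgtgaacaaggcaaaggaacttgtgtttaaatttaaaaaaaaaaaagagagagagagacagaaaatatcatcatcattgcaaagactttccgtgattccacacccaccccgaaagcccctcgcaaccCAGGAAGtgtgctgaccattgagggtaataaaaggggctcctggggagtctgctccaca
The motifs were searched on both strands of these 250 bases. The ETS motif CAGGAAG was present 59 to 53 bases before the start, and 10.8% of the 32851 windows of this length in the table hold it. A Blimp-1 core AAAGNGAAA, which can overlap interferon-responsive elements, an AP-1 motif TGANTCA, the NF-kB consensus and a T-box motif AGGTGTGA were not in this window. Among all windows these motifs occurred in 2.69%, 6.75%, 3.90% and 1.12%. A match is a description of letters and not of binding, and the missing matches concern this window only. Of the other members Ccl1, Ccl3, Ccl20 and Cxcl13 matched the table, and Ccl4 and Ccl5 did not. None of these windows held the Blimp-1 core or the AP-1 motif, and that of Ccl20 held NF-kB, T-box and ETS matches.

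Ccl5 encodes RANTES, a CC chemokine of effector and memory T cells. Its levels were 9.75 in WT TFR, 9.09 in KO TFR, 9.25 in WT non-TFR and 9.44 in KO non-TFR cells. The WT TFR array was the highest, 0.31 above the next, and the KO TFR array the lowest. Ccl5 differed by -0.67 between KO and WT TFR cells (1.59-fold lower in the knockout), short of 2-fold, and 0.780% of all genes had a lower value. In non-TFR cells the genotype difference was 0.20. TFR cells differed from non-TFR cells by 0.50 in WT mice and by -0.36 in KO mice, the latter -0.22 on the deposited values. The span of Ccl5 overlaps that of Gm32650 in the RefSeq gene table, and a sharing of signal between them could not be checked.

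Ccl3 and Ccl4, the CC chemokines also known as macrophage inflammatory proteins MIP-1 alpha and MIP-1 beta, are neighbours on chromosome 11, and their spans overlap in the RefSeq gene table. Probe positions were not used here, so a sharing of signal between them could not be checked. Ccl4 had levels of 5.64 in WT TFR, 6.03 in KO TFR, 6.07 in WT non-TFR and 6.19 in KO non-TFR cells. WT TFR cells were the lowest and the only array near background, though above the olfactory receptor limit there. The genotype difference of Ccl4 was 0.40 in TFR cells and 0.12 in non-TFR cells. Raising values below the expression limit to it brought the first of these to 0.12. Ccl3 had levels of 5.41 in WT TFR, 5.41 in KO TFR, 5.33 in WT non-TFR and 5.24 in KO non-TFR cells. Its deposited value was exactly the same on the WT and KO TFR arrays, so that no genotype difference could be seen there, and its 4 levels spanned only 0.17.

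The other CC members were flat or dim. Ccl1, a ligand of CCR8, had levels of 5.74 in WT TFR, 5.68 in KO TFR, 5.63 in WT non-TFR and 5.56 in KO non-TFR cells, a span of 0.18. It was above the olfactory receptor limit in both TFR arrays (5.57 in WT, 5.54 in KO) and below it in both non-TFR arrays (5.66 in WT, 5.60 in KO). The limit itself thus differed between arrays, and the WT non-TFR level of Ccl1 was above both TFR limits. The largest difference of Ccl1 between populations was 0.12. Ccl20, the CCR6 ligand linked to type 17 responses, had levels of 5.23 in WT TFR, 5.23 in KO TFR, 5.60 in WT non-TFR and 5.40 in KO non-TFR cells. Both non-TFR arrays lay above both TFR arrays. The TFR minus non-TFR difference was -0.37 in WT and -0.17 in KO mice, all between values near background.

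Cxcl13, the ligand of the receptor used to sort the TFR cells, was near background throughout. Its levels were 5.70 in WT TFR, 5.71 in KO TFR, 5.31 in WT non-TFR and 5.53 in KO non-TFR cells. Both TFR arrays lay above both non-TFR arrays and above the olfactory receptor limit, while both non-TFR arrays lay below that limit. The population difference was 0.39 in WT and 0.18 in KO mice. Its deposited value was, like that of Ccl3, the same on both TFR arrays.

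The comparison of TFR with non-TFR cells in WT mice asked which ligands go with the follicular gate. Of the 7 ligands 1, Xcl1, was at least 2-fold apart (higher in TFR cells) with its brighter level above the expression limit, against 3.13% of all genes in either direction. The median difference of the members was 0.11, beside 0.01 over all genes, and is the value of Ccl1, which was near background on all 4 arrays. The same comparison in KO mice gave 0 of 7 at least 2-fold apart, against 2.61% of all genes, with 3 higher and 4 lower and a median of -0.16. The gates differ in CXCR5 and, as far as the labels go, also in PD1, and differences that follow either marker cannot be told apart.

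The comparison of KO with WT asked how the ligands differ with the Prdm1 genotype, which encodes the repressor Blimp-1. In TFR cells 0 of 7 were at least 2-fold apart, against 0.379% of all genes, with 3 members higher, 4 lower and a median of 0.00 beside 0.01 over all genes. In non-TFR cells 1 of 7, again Xcl1, was at least 2-fold apart (higher in the knockout), against 0.464% of all genes, and the median was 0.12 beside 0.03. Over the 4 comparisons 3 of the 28 member differences lay outside the middle 95% of all genes: those of Xcl1 in WT mice and in non-TFR cells, and that of Ccl5 between genotypes in TFR cells. These comparisons share arrays, and the members were chosen with earlier results of these data known. With 1 member called at most, the counts say little about the ligands as a set. The medians of the members are each the value of 1 gene, Ccl1, Ccl4 or Ccl20, and say little about the set either.

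**Figure D2:**
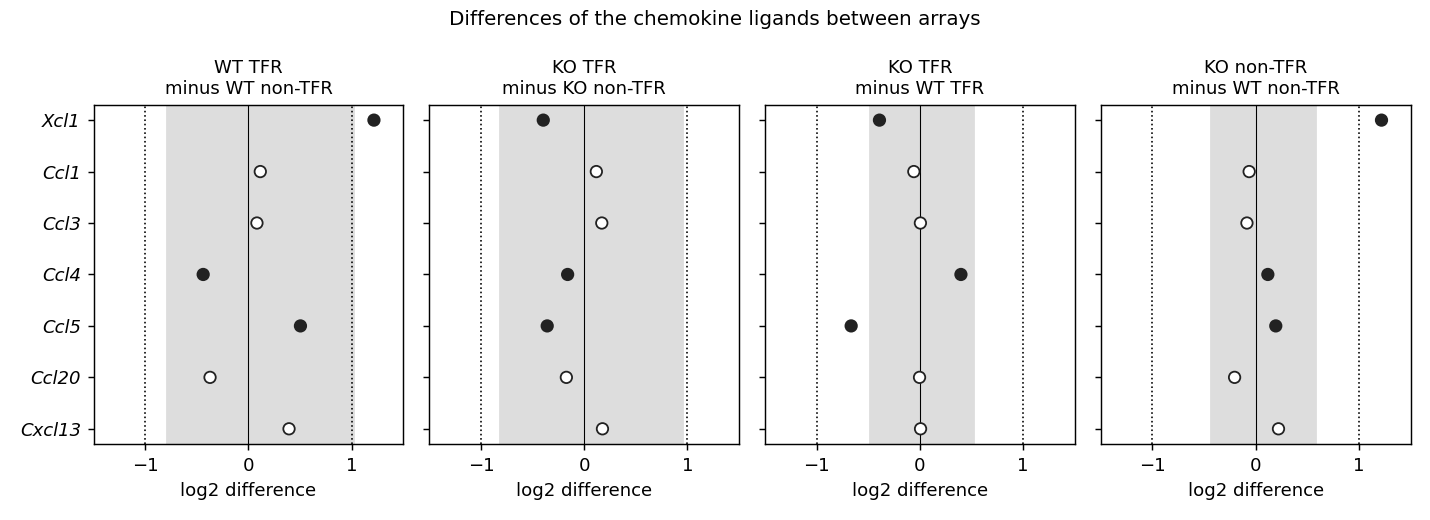
Log2 difference of each chemokine ligand (horizontal axis) in the 4 comparisons named above the panels, with grey bands for the middle 95% of all 22180 genes and dotted lines at 2-fold. Filled points have their brighter level above the expression limit and open points are near background; Xcl1 lies past the dotted line at 1.21 in WT mice and at 1.22 in non-TFR cells, and Ccl5 lies below the band at -0.67 in TFR cells.

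Xcl1 and Ccl5 both had genotype differences of opposite sign in the 2 populations. The genotype difference in TFR cells minus that in non-TFR cells was -1.61 for Xcl1 and -0.86 for Ccl5, outside the middle 95% of all genes (-0.69 to 0.60). For Ccl4, the remaining member with a mean above the limit, it was 0.28, and 0.0046 with values below the limit raised to it. Opposite signs alone were common, found in 40.3% of the 11090 genes with a mean above the limit, and 0.685% had opposite signs and were at least 1 apart, as Xcl1 was. The difference could not be tested with 1 array per group. In bulk samples fewer producing cells and less RNA per cell cannot be told apart.

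**Figure D3:**
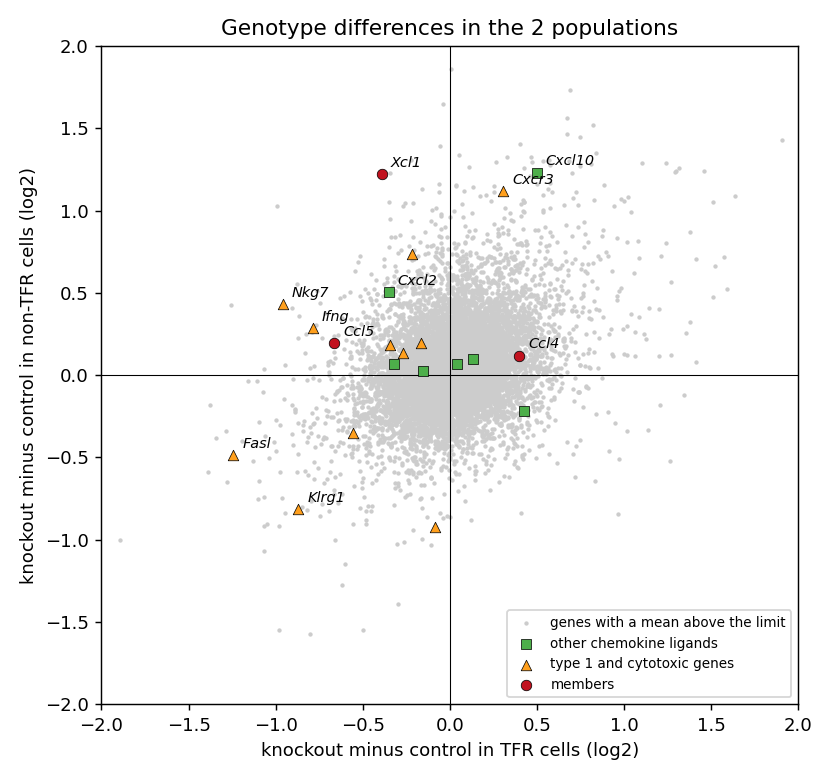
Knockout minus control difference (log2) in TFR cells (horizontal axis) and in non-TFR cells (vertical axis), with 1 point per gene whose mean is above the expression limit; points more than 2 from zero on either axis are not drawn. Xcl1 lies at -0.39 and 1.22, Ccl5 at -0.67 and 0.20 near Nkg7 and Ifng, and Cxcl10 at 0.50 and 1.23.

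Among other chemokine ligands 29 of 31 were measured, and 4 of them (Ccl25, Cxcl2, Cxcl10 and Cxcl16) were above the expression limit on all arrays. Cxcl10, an interferon-induced ligand of CXCR3, had levels of 8.18 in WT TFR, 8.67 in KO TFR, 7.01 in WT non-TFR and 8.24 in KO non-TFR cells. As with Xcl1, the WT non-TFR array was the lowest, so that Cxcl10 was 1.17 higher in TFR cells of WT mice and 1.23 higher in KO non-TFR cells. These were the only 2-fold calls in this list in the 4 comparisons. They made 1 of 29 in each of these 2 comparisons, against 3.13% and 0.464% of all genes. Unlike Xcl1, Cxcl10 was also higher in KO TFR cells, by 0.50. Cxcl2, a neutrophil attractant, had a genotype difference of -0.35 in TFR and 0.50 in non-TFR cells. The median of the list was 0.03 in WT mice, -0.04 in KO mice, 0.04 between genotypes in TFR cells and 0.07 in non-TFR cells.

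For these ligands 6 receptors are described. Xcr1, Ccr1 and Ccr3, which receive XCL1, CCL3 and CCL5, were below the olfactory receptor limit on all arrays. Ccr8, the CCL1 receptor found on activated Treg cells, had levels of 8.53 in WT TFR, 8.47 in KO TFR, 7.68 in WT non-TFR and 8.43 in KO non-TFR cells. Ccr6, the receptor of CCL20, had levels of 8.05 in WT TFR, 8.62 in KO TFR, 6.78 in WT non-TFR and 8.09 in KO non-TFR cells. Both were lowest in WT non-TFR cells. Ccr6 was at least 2-fold higher in TFR cells of WT mice (1.27) and in KO non-TFR cells (1.31), while its ligand Ccl20 was near background in all 4. Cxcr5, which set the gate, was 1.46 higher in TFR cells of WT mice and 1.49 higher in those of KO mice, and 0.84 higher in KO than in WT non-TFR cells. Pdcd1, which encodes PD1, was 1.52 higher in that last comparison, the one in which Xcl1 was higher, and its part in the Xcl1 difference was not tested. Among 5 atypical receptors, which bind chemokines without classical signalling, Ccrl2 and Ackr2 were above the limit on all arrays. None of the 5 was 2-fold apart, against 0.379% to 3.13% of all genes over the 4 comparisons.

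Type 1 and cytotoxic effector genes, which T cells often express with Ccl5 and Xcl1, were mostly lower in KO TFR cells. Of 14 measured 11 were lower and 3 higher, and 2 of the 11 at least 2-fold so, against 0.379% of all genes 2-fold apart in either direction; the median was -0.31 beside 0.01 over all genes. The 2 were Gzmb (-4.00, with a KO level near background) and Fasl, the death ligand (-1.24). Nkg7, a cytotoxic granule protein, had levels of 10.42 in WT TFR, 9.46 in KO TFR, 9.12 in WT non-TFR and 9.56 in KO non-TFR cells. Like Ccl5 it was highest in WT TFR cells and differed by -0.96 between genotypes there, against 0.43 in non-TFR cells. Ifng, chosen after its values were seen, had levels of 8.71, 7.93, 7.96 and 8.25 in the same order, also highest in WT TFR cells. In non-TFR cells 8 of the 14 were higher and 6 lower in the knockout, with a median of 0.16. Cxcr3 was 1.12 higher there, and Gzmb differed by -1.93. Between the populations the list's median was 0.51 in WT and -0.10 in KO mice.

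The other programmes known to go with these ligands had the following values. Of 11 measured type 17 genes 9 were higher in KO TFR and 10 in KO non-TFR cells, 3 and 2 of them at least 2-fold, against 0.379% and 0.464% of all genes, with medians of 0.33 and 0.37 beside 0.01 and 0.03 over all genes. Il23r (2.55 and 2.96, from WT levels near background) and Ccr6 (0.57 and 1.31) were among them, while Ccl20 differed by 0.00 and -0.20. Of 6 measured type 2 genes 3 were higher in KO TFR and 5 in KO non-TFR cells. Their medians were 0.12 and 0.34, beside 0.01 and 0.03 over all genes, and Il4 was 1.51 higher in KO TFR cells. It was the only type 2 gene at least 2-fold apart there, against 0.379% of all genes. None was in non-TFR cells, against 0.464%. The T cell receptor and NF-kB also drive Ccl3, Ccl4 and Xcl1 in activated T cells. Of 18 genes induced by them 16 were lower in KO TFR cells, with a median of -0.22 beside 0.01 over all genes. None was 2-fold apart there, against 0.379% of all genes, and Nr4a1 differed most (-0.98). In non-TFR cells 10 were higher and 8 lower, with a median of 0.08 beside 0.03 over all genes. Of 15 follicular T cell genes 14 were higher in KO TFR and 14 in KO non-TFR cells. At least 2-fold higher were 6 and 4 of them, against 0.379% and 0.464% of all genes 2-fold apart in either direction. The medians of the 15 were 0.87 and 0.62, beside 0.01 and 0.03 over all genes. This list holds both gate genes and was chosen with earlier results of these data known.

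Genes with the most similar pattern were sought among 10215 named genes above the limit, by the root mean square difference of levels centred over the 4 arrays. With only 4 arrays a close match is easily found, and nothing about function follows from it. For Xcl1 they were Nrn1 (0.13), Btbd16 (0.14) and Hgf (0.17). Nrn1, which encodes neuritin, had levels of 10.24 in WT TFR, 10.02 in KO TFR, 8.84 in WT non-TFR and 10.15 in KO non-TFR cells, again lowest in WT non-TFR cells. For Ccl5 they were Tacc2 (0.028), Ptger4 (0.031) and Bbs12 (0.051). Ptger4, which encodes a prostaglandin E receptor, had levels of 10.96 in WT TFR, 10.23 in KO TFR, 10.44 in WT non-TFR and 10.67 in KO non-TFR cells. It shared with Ccl5 the highest level in WT TFR and the lowest in KO TFR cells. Ccl4 was nearest to Rab3c, Nanos1 and Cryaa. The near-background members were nearest to Tnip1, Get3 and Zfp655 (Ccl1), to Mtor, Crym and Bpgm (Ccl3), to Bicral, Dcaf1 and Prmt3 (Ccl20) and to Asnsd1, Zmiz2 and Sgsh (Cxcl13).

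**Figure D4:**
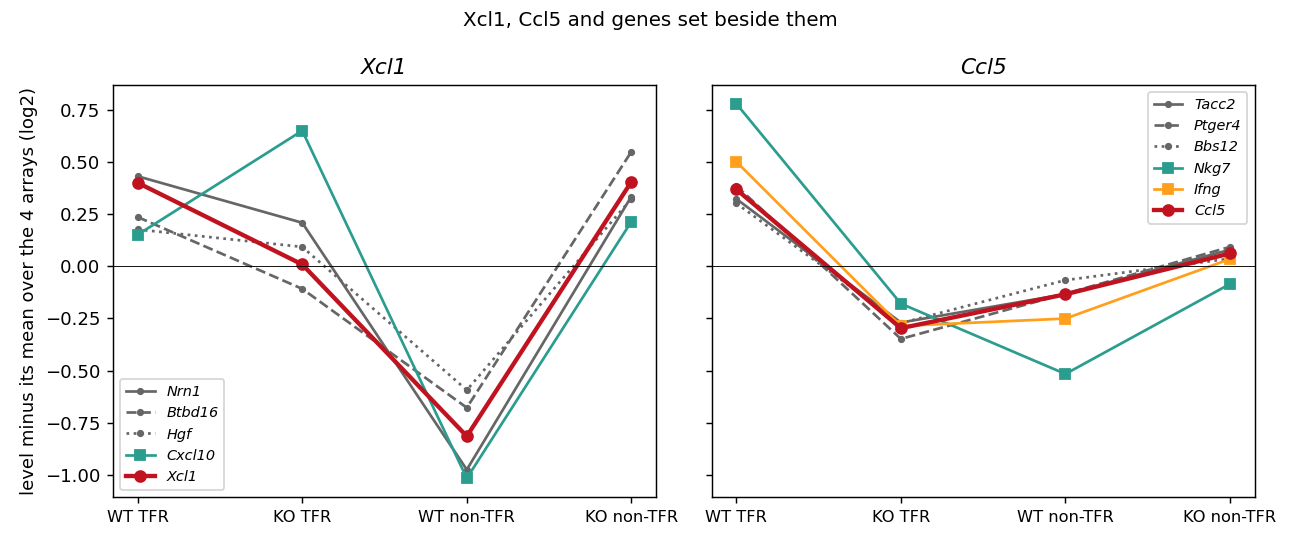
Levels centred on each gene's mean over the 4 arrays (log2, vertical axis) for Xcl1 (left) and Ccl5 (right), in red, with the 3 genes of most similar pattern in grey and, in colour, Cxcl10 beside Xcl1 and Nkg7 and Ifng beside Ccl5. Lines only join the arrays of a gene; WT non-TFR cells are the lowest for Xcl1 and all genes beside it, and WT TFR cells the highest for Ccl5 and all genes beside it.

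CD8 T cells and natural killer cells are strong sources of Xcl1, Ccl3, Ccl4 and Ccl5, so their markers were read on the same arrays. Of 8 measured markers 2 were above the expression limit in WT TFR, 3 in KO TFR, 2 in WT non-TFR and 2 in KO non-TFR cells. The summed intensity of the list on the linear scale was 756, 740, 953 and 895 in that order. Cd8b1 made up most of it; without Cd8b1, left out after its values were seen, the sum was 331, 314, 269 and 267. The part of these cells in the Xcl1 and Ccl5 differences was not tested. Among the 8, Klrd1 (3.39 to 3.71), Klrk1 (3.63 to 3.87), Ncr1 (4.46 to 4.91) and Cd8a (5.36 to 5.60) were below the olfactory receptor limit on all 4 arrays. Cd8b1 (8.73 to 9.42) and Eomes (6.36 to 7.09) were above the expression limit on all 4, and Tyrobp was above the olfactory receptor limit in KO TFR cells (5.75) and below it on the other arrays. Klrb1c was, like Xcl1, lowest in WT non-TFR cells, at 5.85 in WT TFR, 6.12 in KO TFR, 4.77 in WT non-TFR and 5.75 in KO non-TFR cells, and its part in the Xcl1 difference was not tested. Follicular dendritic and stromal markers, the cells that make most CXCL13, were above the limit in 2 or 3 of 9 measured cases per array, with a summed intensity between 423 and 500. Macrophage and monocyte markers were above it in 1 or 2 of 9, with a summed intensity between 427 and 838, highest in KO TFR cells through Cd68. Dendritic cell markers were above it in 1 of 7 (Cd209a) on every array, with a summed intensity between 485 and 604, B cell markers in 2 to 4 of 9, with 549 to 1175 (lowest in WT non-TFR cells), and neutrophil markers in at most 1 of 8, with 253 to 297. Plasma cell markers were above it in 3 to 5 of 7, among them Xbp1, Mzb1 and Txndc5, which other secreting cells also use, with 1302 to 1460. The B cell marker Cd22, singled out after its values were seen, was, like Xcl1, lowest in WT non-TFR cells, at 8.27 in WT TFR, 9.27 in KO TFR, 5.99 in WT non-TFR and 7.04 in KO non-TFR cells, and at least 2-fold apart in all 4 comparisons. Of the other B cell markers, Cd79b (8.08 to 8.42) was above the expression limit on all 4 arrays and Pax5 (6.10) and Blk (6.11) in KO TFR cells, while Ms4a1, Ebf1, Fcer2a and Cr2 were below the olfactory receptor limit on every array. The part of B cell RNA in the Xcl1 difference was not tested.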

How the data were processed

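Total RNA of the 4 sorted populations was biotin-labelled for Mouse Gene 2.0 ST arrays, per the labels' protocols. The deposited table holds 1 value per probe (transcript cluster) and array; that these are log2 intensities made by the authors was inferred from their range of 2.23 to 13.8. The submitters' processing notes name MAS5 with no version or role; how probes were background-corrected and summarized is not stated here. Samples were grouped by title. All 41345 probes were quantile normalized with limma 3.58.1 in R 4.3.3. Of the probes 23521 had 1 gene symbol, 1814 several and 16010 none in the platform annotation; 23328 matched the RefSeq gene table by Entrez identifier and 0 symbols changed. The brightest probe stood for a gene, leaving 22180 genes. Quantile normalization also removes a real shift that most genes share.

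Each comparison is the log2 difference of 2 arrays, called at 2-fold where the brighter level exceeded the median of all genes. No test was possible with 1 array per group, and 1 array per group limits the precision. Named were all members, up to 4 genes of a list with the largest differences, and the 3 genes nearest in pattern to each member; genes given beside a receptor, gate or marker statement were named as such. The members and lists were chosen with earlier results of these data known. Alternatives were other normalizations, other limits, a floor, the mean of all probes and a 1.5-fold threshold.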

Additional observations from a re-analysis of the deposited data

Results flagged for a closer look

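Xcl1 and Ccl5 were flagged because the knockout minus control difference had opposite signs in TFR and in non-TFR cells. Opposite signs alone were common, found in 40.3% of the 11090 genes with a mean above the expression limit. Opposite signs at least 1 apart were found in 0.685%, which holds for Xcl1 but not for Ccl5. The Xcl1 difference in TFR cells lay within the middle 95% of all genes (-0.48 to 0.53). So did the Ccl5 difference in non-TFR cells (-0.43 to 0.58). The genotype difference in TFR cells minus that in non-TFR cells was -1.61 for Xcl1 (from -0.39 and 1.22) and -0.86 for Ccl5 (from -0.67 and 0.20). Each group is 1 array, so the difference between the populations was not tested.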

How the results depend on the processing

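The count of members at least 2-fold apart was 1 between WT populations, 0 between KO populations, 0 between genotypes in TFR cells and 1 between genotypes in non-TFR cells. With a limit at the 75th percentile of all genes (8.05) it was 0 in the first and 0 in the last, since Xcl1 peaks at 7.98, and with a 1.5-fold threshold it was 1 in TFR cells, where Ccl5 was then called. The count was the same under the other alternatives. Over 8 settings that change the values, the Xcl1 difference ranged from 1.12 to 1.34 between WT populations and from 1.15 to 1.22 between genotypes in non-TFR cells, and that of Ccl5 between genotypes in TFR cells from -0.69 to -0.66. These include quantile normalization within each population, chosen after seeing the data. The signs of Ccl3 and Cxcl13 between genotypes in TFR cells, and of the genotype difference in TFR minus that in non-TFR for Ccl1, changed between settings, with sizes of at most 0.05. The mean of all probes changes nothing for members with 1 probe. No array could be left out with 1 per group. No paired analysis was possible because each group has 1 array.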
